A study of Drosophila melanogaster with 2 samples.

Results

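Binding of Krüppel (Kr) was described at 6 genes for cell-surface receptors: 18w, Tollo, Toll-6, Toll-7, Tl and Ten-m. They were chosen by name, out of 13945 protein-coding genes on the chromosome arms of the Ensembl BDGP6 annotation, and all 6 were found. Each was given a window of the gene body and 10 kb to either side. These windows cover 305 kb in all and do not overlap. They held 16 summits of the authors' list of 2102 peaks thresholded by irreproducible discovery rate (IDR), called IDR summits below.

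The data are ChIP-seq peak lists from whole Drosophila melanogaster embryos aged 0 to 10 h, male and female pooled, of a line that stably carries Kr fused to GFP at its C terminus. The labels call it an insertion that targets Kr. Chromatin was sheared by sonication and an antibody to GFP was used for the precipitation. The labels give 1 group of 2 biological replicates with the numbers 2 and 3, so no contrast between conditions exists and no test was run. All of the embryo and 10 h of development were mixed, so a peak is not tied to a stripe, a germ layer or a time.

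Permissive lists of 30000 peaks each were deposited for replicate 2, replicate 3 and both pooled. The 2102 IDR peaks were the top of the pooled list by signal, with no exception. Peak signal is the authors' value, on a scale not given in the sources used here, and ranks count from the highest signal of a list. A replicate's value at a summit is that of its nearest peak summit within 250 bp. The lists hold no read counts, so sequencing depth is unknown, and intervals cover counting error only. The SD of 2 replicate signals also holds the difference in scale between the lists.

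Toll receptors are transmembrane proteins with leucine-rich repeats outside the cell. In the early Drosophila embryo 18w, Tollo and Toll-6 are expressed in stripes along the anterior-posterior axis, under control of pair-rule genes such as eve and runt, and steer the cell rearrangements that lengthen the germ band. Toll-7 belongs to the same group of long Toll receptors. Ten-m is a teneurin, a large cell-surface protein that is also expressed in stripes and later acts in the matching of synaptic partners. Tl, the founding receptor, is supplied maternally, receives the ligand Spätzle on the ventral side, and sends Dorsal into nuclei. Kr itself is a zinc finger protein of the gap class, known chiefly for repression, and helps to position the pair-rule stripes.

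The sequence under 6 of the 16 summits is given first, because these show the words that were sought and the highest site of each gene for which sequence is printed. Each is 201 bp of dm6 centred on the summit, from the RefSeq copy of the assembly. Capitals mark, on either strand, the core of the Kr motif (AAGGGTT), the word bound by Zelda (CAGGTAG), an activator of the early zygotic genome, the word bound by GAGA factor (GAGAGAG), and a Runt-type word (AACCGCA). On the − strand the Kr word reads AACCCTT in the printed strand, the Zelda word reads CTACCTG and the Runt word reads TGCGGTT.
Ten-m summit 1, chr3L:22402802-22403002, + strand: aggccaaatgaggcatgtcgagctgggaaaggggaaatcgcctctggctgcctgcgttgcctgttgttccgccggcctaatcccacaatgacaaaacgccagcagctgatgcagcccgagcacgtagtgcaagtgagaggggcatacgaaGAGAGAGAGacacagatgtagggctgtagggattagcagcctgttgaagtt
Ten-m summit 4, chr3L:22385201-22385401, + strand: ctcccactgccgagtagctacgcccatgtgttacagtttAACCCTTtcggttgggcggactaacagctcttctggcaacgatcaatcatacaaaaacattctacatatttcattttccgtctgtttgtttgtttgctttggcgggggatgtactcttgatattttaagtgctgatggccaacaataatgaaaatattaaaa
Ten-m summit 6, chr3L:22381982-22382182, + strand: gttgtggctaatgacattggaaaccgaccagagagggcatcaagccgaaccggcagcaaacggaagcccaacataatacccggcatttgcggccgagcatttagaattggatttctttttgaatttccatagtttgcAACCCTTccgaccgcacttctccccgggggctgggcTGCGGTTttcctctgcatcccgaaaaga
Tollo summit 1, chr3L:15232899-15233099, + strand: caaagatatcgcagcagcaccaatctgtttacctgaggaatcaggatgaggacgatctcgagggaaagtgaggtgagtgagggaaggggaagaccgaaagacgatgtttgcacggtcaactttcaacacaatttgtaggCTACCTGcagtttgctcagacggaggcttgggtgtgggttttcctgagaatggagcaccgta
Tl summit 1, chr3R:26796597-26796797, + strand: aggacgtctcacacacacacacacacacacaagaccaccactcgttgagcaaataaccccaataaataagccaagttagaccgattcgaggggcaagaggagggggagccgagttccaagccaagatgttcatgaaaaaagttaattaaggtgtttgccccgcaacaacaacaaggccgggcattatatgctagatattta
Toll-6 summit 1, chr3L:15348044-15348244, + strand: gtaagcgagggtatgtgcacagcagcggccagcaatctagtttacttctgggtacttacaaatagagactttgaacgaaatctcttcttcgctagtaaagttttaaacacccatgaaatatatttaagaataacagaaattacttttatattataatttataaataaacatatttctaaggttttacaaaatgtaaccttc

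Each of the 6 genes had at least 1 IDR summit in its window. This held for 27.2% of all 13945 protein-coding genes, and for 37.5% of the 3255 genes at least as long as 18w, the shortest of the 6. The number of summits ranged from 1 at Toll-6 and at Tl to 6 at Ten-m, with a median of 2.0, against a median of 0 over all protein-coding genes. Of all genes, 1.85% had at least the 4 summits of 18w (4.12% of genes at least as long), 9.58% at least the 2 of Tollo and Toll-7, and 0.567% at least the 6 of Ten-m. These counts are of the IDR list, and those of Toll-6, Toll-7, Tl and Ten-m moved by over 1.5 times in the highest peaks of 1 replicate alone, as given for each gene. The shares for 2 and 6 summits are over genes of every length, and Ten-m, at 114.8 kb, is the longest of the 6. Per length, the windows held 5.25 IDR summits per 100 kb (exact Poisson 95% interval 3.00 to 8.52), against 1.57 over the chromosome arms, a ratio of 3.34. Pooled permissive summits were also dense there, at 56.8 per 100 kb (48.6 to 65.9) against 22.4, a ratio of 2.53.

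**Figure D1:**
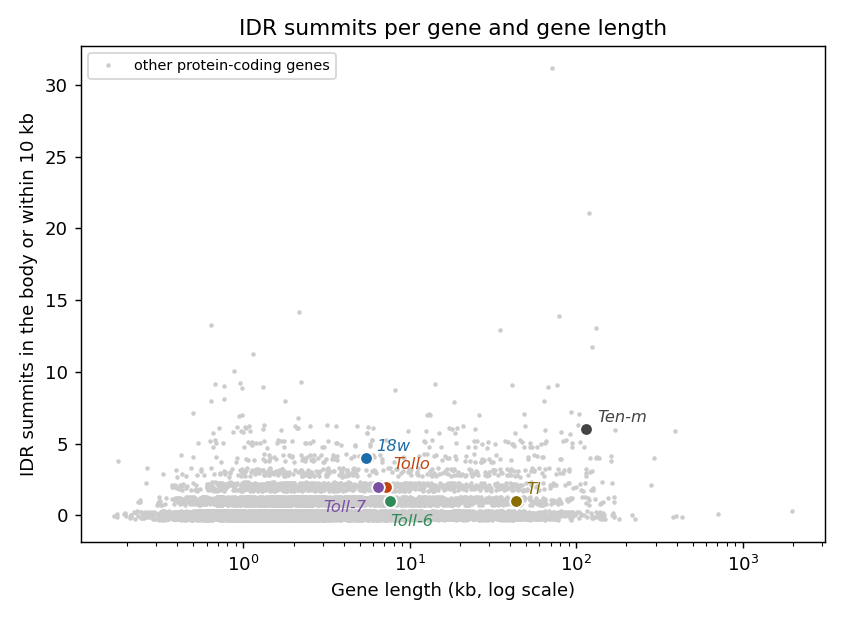
Number of IDR summits per window (body and 10 kb of flank on each side; vertical axis, grey points spread by up to 0.3 for visibility) against gene length (kb, log scale). Coloured points are the 6 genes, from 1 summit at Toll-6 and Tl to 6 at Ten-m, the longest of them at 114.8 kb.

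The Toll genes and Ten-m carried their peaks in different places. At the 5 Toll genes, 0 of 10 IDR summits lay in the gene body, which held one at 5.52% of all genes. All 10 lay upstream of the 5′ end or beyond the 3′ end. At Ten-m all 6 lay in the body. The body of 18w, Tollo, Toll-6 and Toll-7 is short, from 5.4 to 7.6 kb, whereas that of Ten-m is 114.8 kb, so their windows offer unequal amounts of gene and flank. Tl, with a body of 43.4 kb, had 12 pooled permissive summits in it, and the best of them ranked 6251, far below the IDR list.

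**Figure D2:**
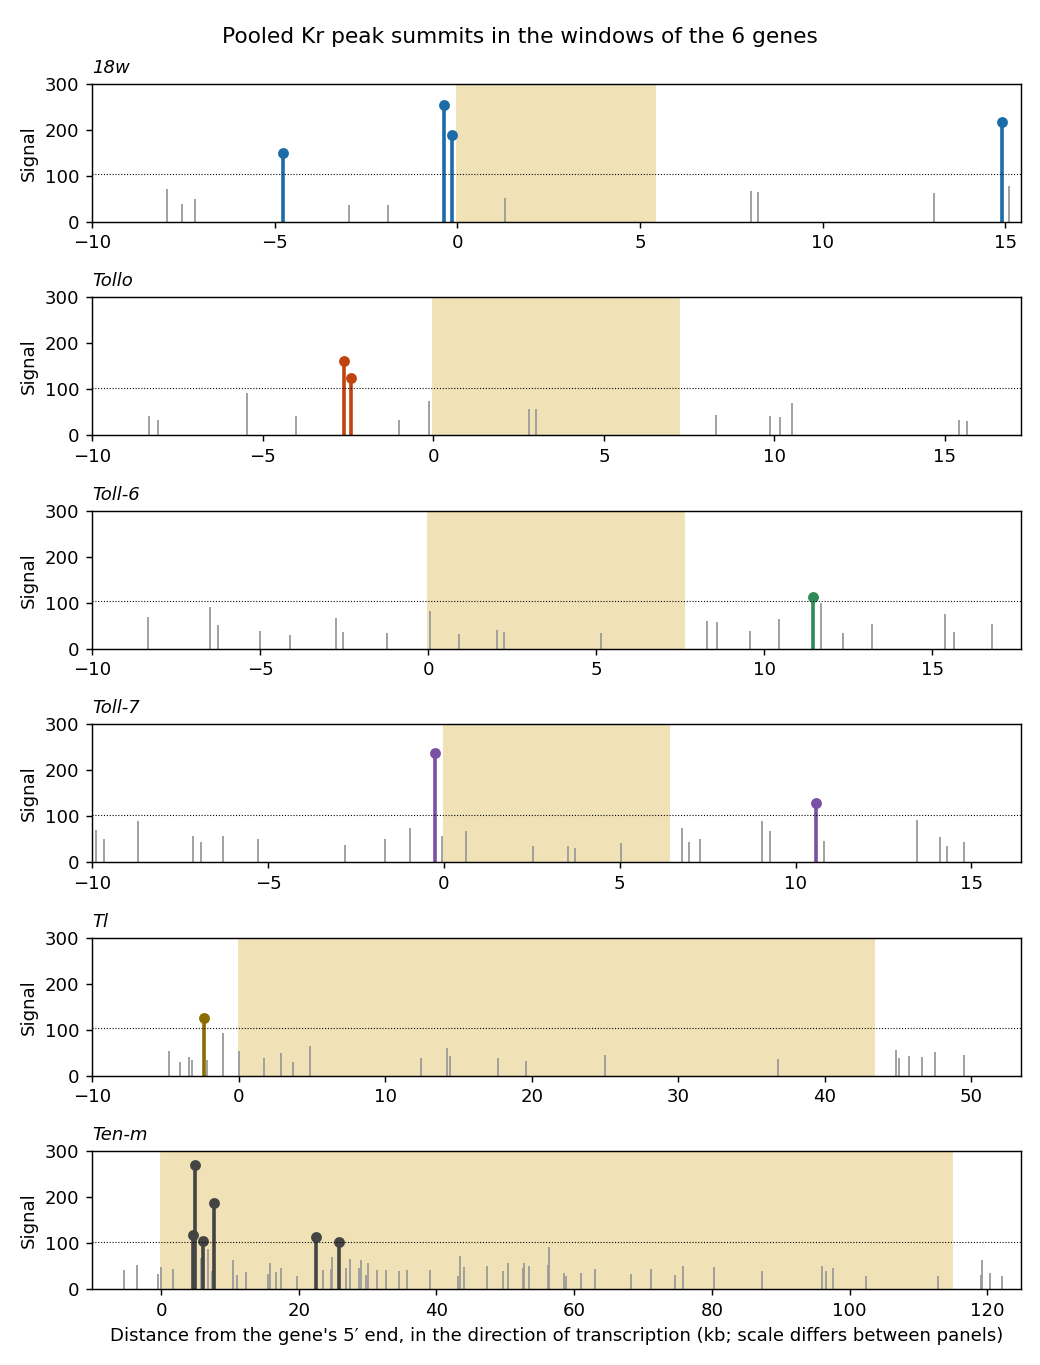
Pooled summits in each window by distance from the gene's 5′ end (kb, in the direction of transcription) and pooled signal. Shading is the gene body, coloured stems are IDR summits, grey stems are other pooled summits, and the dotted line is the lowest IDR signal, 103. Stems above the line flank the bodies of the Toll genes and stand inside the first 30 kb of Ten-m.

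18w (FBgn0287775; dm6 2R, 20111511 to 20116932, + strand) had the highest density, 15.7 IDR summits per 100 kb (exact Poisson 95% interval 4.29 to 40.3). This value counts its summits 1 and 3, whose peaks overlap, separately. No other protein-coding gene reaches into its window. Its summit 1 (peak 20110938 to 20111377) lay in the promoter, 353 bp upstream of the transcription start site (TSS), and ranked 163 with a pooled signal of 254. Its signals were 136 in replicate 2 and 117 in replicate 3 (mean 126 ± 13.5, SD, n = 2). This was the closest agreement in signal among the 3 promoter summits of the 6 genes, and the site ranked 253 and 150 in the replicate lists.

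Summit 3 of 18w (peak 20111138 to 20111577), 153 bp upstream of the TSS, is a second call on the same promoter, since its peak overlaps that of summit 1. It ranked 414, with 108 in replicate 2 and 51.1 in replicate 3 (mean 79.3 ± 39.9, SD, n = 2). Summit 2 of 18w (peak 20126209 to 20126648) lay on the other side of the gene, 9497 bp past its 3′ end and close to the edge of the window. It ranked 281, with 125 in replicate 2 and 85.6 in replicate 3 (mean 105 ± 27.5, SD, n = 2), and 18w is still the gene of the nearest TSS. Summit 4 of 18w (peak 20106529 to 20106968), 4762 bp upstream, ranked 792 and differed most between replicates, with 109 against 37.7. Its rank was 482 in replicate 2 and 3220 in replicate 3, outside the 2102 highest peaks of the latter.

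Toll-7 (FBgn0034476; 2R, 19826578 to 19832973, + strand), on the same arm as 18w and 278.5 kb from it, also had a promoter summit. Summit 1 (peak 19826114 to 19826553) lay 244 bp upstream of the TSS and ranked 222, with 135 in replicate 2 and 90.5 in replicate 3 (mean 113 ± 31.8, SD, n = 2). Both replicates placed it high, at ranks 257 and 310. Summit 2 (peak 19836952 to 19837391) lay 4199 bp past the 3′ end of Toll-7, and its nearest TSS was that of CG44569, 6496 bp away. It ranked 1143, with 66.3 in replicate 2 and 73.2 in replicate 3 (mean 69.8 ± 4.88, SD, n = 2). It was the 1 summit of the 16 that was higher in replicate 3. Among the 2102 highest peaks of replicate 3 alone Toll-7 had 4 summits in place of 2, and among those of replicate 2 alone it had 2.

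Tollo (FBgn0029114; 3L, 15235619 to 15242832, + strand) had an overlapping pair of IDR peaks upstream. Summit 1 (peak 15232779 to 15233218, sequence above) lay 2620 bp upstream of the TSS and ranked 615, with 111 in replicate 2 and 49.2 in replicate 3 (mean 79.9 ± 43.3, SD, n = 2). Summit 2 (peak 15232982 to 15233421), 2417 bp upstream, ranked 1297 with 82.6 in replicate 2. Replicate 3 also had 2 calls here, of signal 49.2 (rank 1634) and 30.1 (rank 5638). The first of them was the nearer one to both summits. It lay 89 bp from summit 2, against 111 bp for the other call, so the rank of summit 2 in replicate 3 rests on a small difference in distance.

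Toll-6 (FBgn0036494; 3L, 15336692 to 15344315, + strand) had a single, low IDR summit. It lay 3829 bp past the 3′ end (peak 15347924 to 15348363) and ranked 1678, with 80.2 in replicate 2 and 30.9 in replicate 3 (mean 55.5 ± 34.9, SD, n = 2). The replicates placed their highest site in this window differently. Replicate 2 ranked the 3′ site at 1232. Replicate 3 ranked that site at 5304 and had its own highest summit upstream, 6482 bp before the TSS by the pooled call, with a signal of 53.8 and rank 1286. That upstream site had 39.8 and rank 6866 in replicate 2, and pooled rank 2829, below the IDR list. With 20 kb to either side, Toll-6 had 4 IDR summits in place of 1. At that width 41.7% of all genes had at least 1, against 27.2% with 10 kb. Among the 2102 highest peaks of replicate 2 alone it had 2, both of them calls at the 3′ site (ranks 1232 and 1652).

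Tl (FBgn0262473; 3R, 26799041 to 26842403, + strand), the gene of the 6 that is not striped, also had 1 IDR summit (peak 26796477 to 26796916), 2344 bp upstream of the TSS. It ranked 1232, with 59.9 in replicate 2 and 38.7 in replicate 3 (mean 49.3 ± 15.0, SD, n = 2), at replicate ranks 2679 and 3043. Replicate 2 had a further summit 143 bp away on the other side, of signal 89.5 and rank 892, so the pooled summit falls between 2 calls of that replicate, the nearer of them 83 bp away. Tl had the lowest density of the 6, 1.58 IDR summits per 100 kb (exact Poisson 95% interval 0.0400 to 8.79), close to the 1.57 of the chromosome arms. Among the 2102 highest peaks of replicate 3 alone Tl had 0 summits, and the other 5 genes had at least 1 (29.1% of all genes). With those of replicate 2 alone all 6 genes had at least 1 (25.6% of all genes).

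Ten-m (FBgn0004449; 3L, 22293044 to 22407863, − strand) had 4.45 IDR summits per 100 kb (exact Poisson 95% interval 1.63 to 9.69), the third lowest of the 6 densities in spite of the highest count. The place of Tollo above it (7.35) rests on counting the overlapping pair of Tollo separately. Toll-6, with 1 summit in a window of like length (27.6 against 27.2 kb at Tollo), had 3.62, below Ten-m. All 6 summits of Ten-m lay in its first intron of 66.25 kb, within 25781 bp of the TSS. The same stretch lies in the non-coding RNA gene lncRNA:CR45962, so these sites cannot be assigned to Ten-m by position alone. The second intron, of 32.27 kb, held 0 IDR summits and 9 pooled permissive summits, against 47 in the first. The promoter of Ten-m had pooled permissive summits, and the best of them ranked 11632.

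Ten-m summit 1 (peak 22402858 to 22402985) was the highest of all 16, with a pooled signal of 269 and rank 133. It lay 4961 bp downstream of the TSS and had 182 in replicate 2 and 103 in replicate 3 (mean 142 ± 55.7, SD, n = 2), at ranks 89 and 223. Summit 2 (peak 22399961 to 22400400), 7682 bp downstream, ranked 431, with 118 in replicate 2 and 75.0 in replicate 3 (mean 96.4 ± 30.3, SD, n = 2). Both replicates thus held these 2 sites among their 2102 highest peaks.

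The other 4 summits of Ten-m were weaker. Their pooled ranks ran from 1448 to 2065, with signals of 62.9 to 71.3 in replicate 2 and 36.1 to 44.7 in replicate 3. None of the 4 was within the first 2102 ranks in both replicates, although all had a matching peak in each. Summits 3 and 5 (4622 and 6066 bp from the TSS) stand beside summits 1 and 2, and these 4 form a group in the first 8 kb. Summits 4 and 6 (22562 and 25781 bp) stand apart from it, deeper in the intron. Among the 2102 highest peaks of replicate 3 alone, Ten-m had 2 summits in place of 6.

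**Figure D3:**
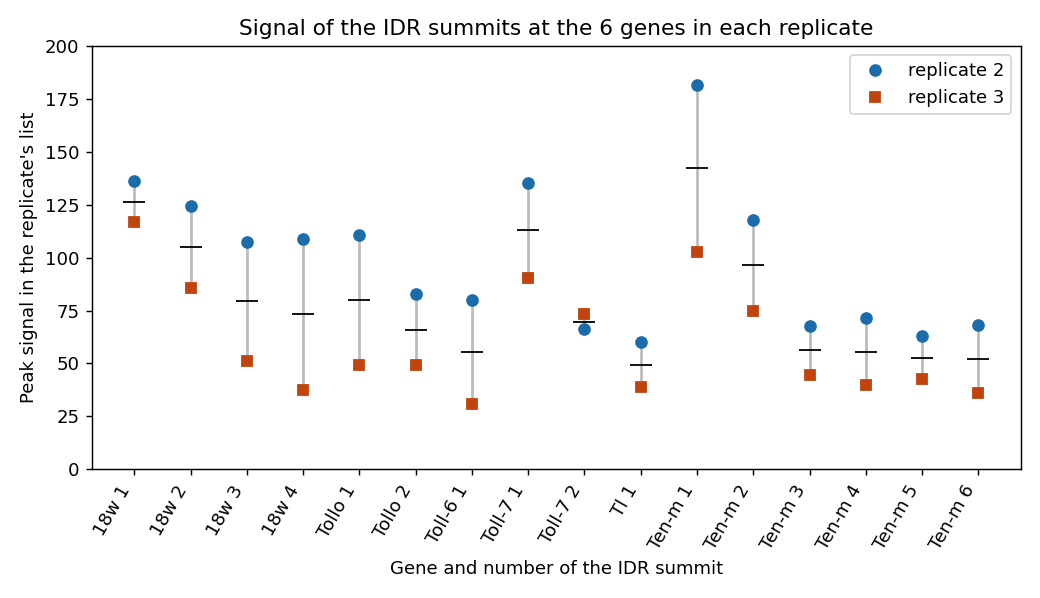
Signal of each of the 16 IDR summits in replicate 2 (circles) and replicate 3 (squares). Short bars are the means of the 2 replicates. Replicate 2 is higher at 15 of 16 summits (at 81.2% of all matched IDR summits), from 59.9 to 182 over all 16 in replicate 2 and from 30.9 to 117 in replicate 3.

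The replicates were compared over all 16 summits. Every one had a peak summit within 250 bp in both replicates (100%, Wilson 95% interval 80.6 to 100), as did 98.9% of all IDR summits, a share that the permissive lists make high by construction. By rank, 9 of 16 (56.2%, Wilson 33.2 to 76.9) were within the first 2102 ranks in both replicates, against 53.9% of all IDR summits. Tollo summit 2 is among the 9 by its match to the nearer of 2 calls in replicate 3. In replicate 2 alone 14 of the 16 did (87.5%, all IDR summits 77.1%), and in replicate 3 alone 9 (56.2%, all 72.7%). Signal was higher in replicate 2 at 15 of 16, and at 81.2% of all 2079 matched IDR summits. The median ratio was 1.62, against 1.46 over all matched IDR summits.

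**Figure D4:**
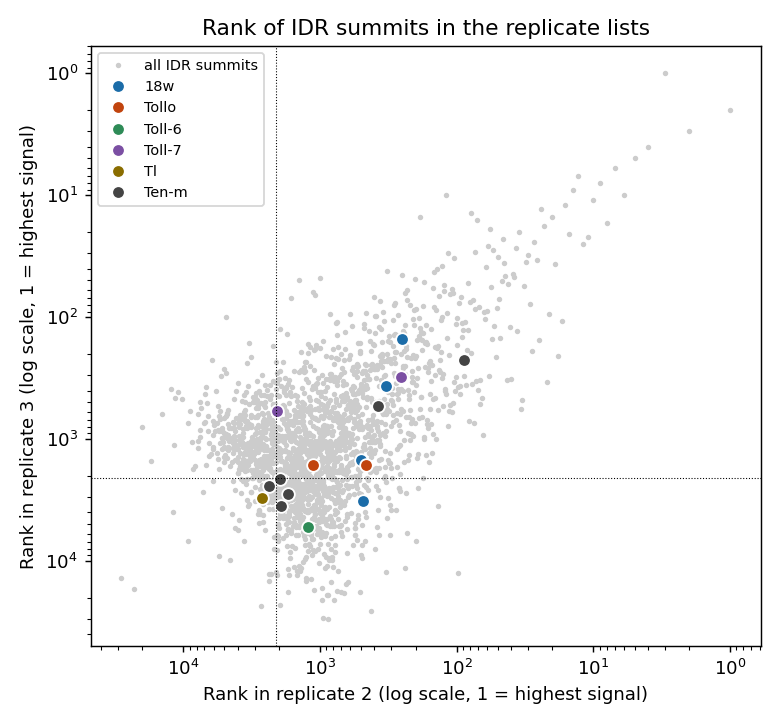
Rank of each IDR summit in replicate 2 (horizontal) and replicate 3 (vertical), both on log scales with the highest signal at the upper right. Dotted lines mark rank 2102. Of the coloured points, 9 of 16 lie above and to the right of both lines, and the 3 from Ten-m summit 1, 18w summit 1 and Toll-7 summit 1 are among the highest.

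Promoters differed between the genes. Of the 16 summits 3 lay within 500 bp of a TSS (18.8%, Wilson 95% interval 6.59 to 43.0), against 28.9% of all IDR summits. These were the pair at 18w and summit 1 of Toll-7. The promoters of the remaining genes had pooled permissive summits below the IDR list. That of Toll-6 ranked 3744, with 49.8 and 28.5 in replicates 2 and 3 and a q-value of 0.0156 in the authors' list. That of Tollo ranked 4468, with 44.3 and 46.9 and a q of 0.0274. At Tl the promoter summit ranked 9160 (q of 0.199) and had 31.0 in replicate 2 and no match in replicate 3. At Ten-m it had 25.4 and 17.7 (q of 0.306). By pooled rank the promoters thus ran from 18w and Toll-7, through Toll-6 and Tollo, to Tl and Ten-m. Toll-6 was above Tollo in replicate 2 and below it in replicate 3, so these neighbours did not keep their order in both replicates. Nor did Tl and Ten-m, since Tl was above Ten-m in replicate 2 and only Ten-m had a match in replicate 3.

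By other classes, 7 of the 16 were intergenic (43.8%, Wilson 23.1 to 66.8; all IDR summits 28.1%) and 6 intronic (37.5%, 18.5 to 61.4; all 41.2%). None lay in a coding exon or UTR. Each summit has 1 class, and the promoter class was assigned first. Outside promoters, 0.428% (coding exon), 0.904% (5′ UTR) and 0.571% (3′ UTR) of all IDR summits lay in these. The median distance to the nearest TSS of a protein-coding gene was 4862 bp, against 2134 bp over all IDR summits. The GC content of the 201 bp windows had a median of 50.2%, from 30.8% at Toll-6 to 61.2% at 18w summit 3, against a median of 43.8% for all IDR summits. Another IDR summit stood within 250 bp of 4 of the 16, the pairs at 18w and Tollo (Wilson 10.2% to 49.5%), against 12.2% of all IDR summits.

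The Kr word AAGGGTT was found within 100 bp of 2 of 16 summits (12.5%, Wilson 95% interval 3.50 to 36.0). Over all IDR summits the share was 12.5%, and in 4005 windows of the same length centred 1 kb away it was 2.15%. Both carriers were weak sites of Ten-m, summits 4 and 6, with the word 61 bp before and 37 bp after the summit in the sequences above, on the − strand of the assembly. None of the highest summits of 18w, Toll-7, Tollo, Toll-6, Tl or Ten-m had it.

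GAGAGAG, whose matches overlap each other in repeats, was present at 3 of 16 (18.8%, Wilson 6.59 to 43.0; all IDR summits 9.37%, windows 1 kb away 3.50%). The carriers were summit 1 of 18w, of Toll-7 and of Ten-m, the highest site of each of these genes. CAGGTAG was present at 2 of 16 (12.5%, 3.50 to 36.0; all 3.28%, windows 1 kb away 1.32%). These were 18w summit 4, where the match starts 1 bp before the summit, and Tollo summit 1, where it starts 39 bp after. AACCGCA was present at 1 (6.25%, 1.11 to 28.3; all 3.09%, windows 1 kb away 2.77%), which was Ten-m summit 6, the summit that also had the Kr word.

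Below the IDR list, the windows held 157 further pooled permissive summits. A summit within 250 bp in both replicates was found for 11 of the 14 pooled summits at 18w, 22 of 28 at Toll-7, 12 of 16 at Tollo, 37 of 66 at Ten-m, 10 of 24 at Toll-6 and 9 of 25 at Tl, IDR summits included. Over the 6 windows this was 101 of 173 (58.4%), against 52.5% of all 30000 pooled summits. A pooled permissive summit was present in the window of 90.4% of all genes, so presence in that list says little about a gene. At the threshold, the lowest site inside was Ten-m summit 6 (rank 2065, pooled signal 104). The highest sites outside were a second call beside the 3′ site of Toll-6 (rank 2357, signal 98.3), a site 1100 bp upstream of Tl (rank 2650, signal 93.6) and a site 56355 bp into Ten-m (rank 2728, signal 92.4).

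Other genes of the same systems were counted by the same rule, from lists of 49 names, of which 48 were found. IDR summits were present at 18 of 48 (37.5%), against 27.2% of all genes and 37.5% of genes at least as long as 18w. The 48 were not filtered by length, so the last share is of an unlike set. The other Toll receptors (MstProx, Tehao, Toll-4 and Toll-9) had none, at 0 of 4, and their best pooled peaks ranked from 14999 to 28460. Ligands of the Spätzle family, the proteases that activate them and pip, a sulfotransferase of the same dorsoventral pathway, had 2 of 12, among those without being spz and NT1. The 2 were spz5 (rank 1304, nearest TSS that of Tet) and snk (rank 1549, nearest TSS that of ry). Cytoplasmic Toll signalling had 1 of 8, with none at the adaptors Myd88 and tub. The 1 was Dif, by a peak in the promoter of Polr2J (rank 1291) that had no match in replicate 2.

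Surface proteins related to Ten-m or bearing leucine-rich repeats or adhesion domains had 4 of 8 genes with a summit, with none at trn and Lapsyn. By best rank the leucine-rich repeat gene caps led, with 3 summits and a best rank of 478, signals of 87.4 and 91.2 in replicates 2 and 3. The adhesion gene ed had 3 (best rank 546, 111 and 61.7), and Ten-a, the other teneurin gene of the fly, had 4 (best rank 780, 91.1 and 70.3). The best peaks of caps, ed and Ten-a lay in introns of these genes, as did all IDR peaks of Ten-m. The fourth gene was Cirl (rank 1756).

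The cytoskeleton and cell polarity list had 11 of 16 (68.8%, all genes 27.2%), with none at sqh (myosin light chain) and arm (β-catenin). Its best peaks were near Src42A (rank 136, 155 and 115 in replicates 2 and 3), in the promoter of Pngl, and in an intron of Src64B (rank 379, 111 and 86.1), both genes for Src kinases. They were followed by sdt, a gene of the Crumbs complex (rank 582, promoter, 84.5 and 87.5). Of the 11 genes, 2 share their best peak, so these are not independent counts, and 1 of these was matched to its listed name through a RefSeq synonym. At some of the 11, as at Src42A, the TSS nearest the best peak was that of another gene. spz5, snk, Dif, Cirl, Toll-4 and Toll-9 were named after their values were seen.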

How the data were processed

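Peak lists of Kr-GFP ChIP-seq for dm6 were used as deposited. Permissive peaks were called from the alignments of either replicate and from both together, per the text lists that came with the files, against a control not analysed here, and the IDR list was made from them. The aligner, the caller and its thresholds were not given in the sources used here. The signal value and the −log10 of a q-value of each peak were taken as deposited by the authors, and q was at most 0.00325 in the IDR list. The dm3 lists were not used, since coordinates were not converted.

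Summits are the peak start plus the deposited offset, and coordinates start at 1. Peak ends were checked against the arm lengths of the RefSeq sequence (Release 6, the dm6 assembly), and genes came from Ensembl BDGP6. A promoter is within 500 bp of the TSS of a protein-coding gene. Counting, matching and word search were tested on simulated data. Python 3.11.15, pandas 2.3.3, numpy 2.4.6 and scipy 1.17.1 were used. The replicates are biological per the labels.

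The members, lists, words and settings were chosen with earlier results of these data known. Named are the 6 genes with every IDR summit and the gene of the nearest TSS where it is another. Of the other lists, up to 4 genes with a peak among the 1051 highest IDR peaks and up to 2 without a summit are named, apart from 1 gene that is not reported here. Alternatives were other windows, match distances, words, the 1051 highest IDR peaks, and the 2102 highest peaks of either replicate alone.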

Additional observations from a re-analysis of the deposited data

How the results depend on the processing

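Of 23 summary values recomputed under alternatives, 17 stayed within 1.5 times. Counting the gene body only left 1 gene with an IDR summit, Ten-m, and 6 summits in all, while 5.52% of all genes kept one. The 1051 highest IDR peaks left 8 summits at 4 of the 6 genes, and a summit at 16.1% of all genes. The Kr word was found at 1 of 16 summits within 50 bp (9.18% of all IDR summits), at 4 within 200 bp (15.8% of all), with Tollo summit 2 and Ten-m summit 5 added, at 3 with AAGGGT (19.4% of all) and at 1 with AAGGGTTA (5.14% of all). Without replicate 2 or without replicate 3, from 5 to 6 genes had a summit, with 13 to 16 summits, a density ratio of 2.72 to 3.34, and 17 to 19 of the other listed genes. Single genes moved more. Without replicate 2, Toll-7 had 4, Ten-m 2 and Tl 0 summits, and without replicate 3 Toll-6 had 2, both at its 3′ site. The cause was not tested. Depth is unknown, and with 2 replicates small differences between sites cannot be resolved. No paired analysis was possible because there is 1 group.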

Other observations

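The stretches between neighbouring genes of the set, outside their windows, were also counted. Between Tollo and Toll-6, over 73.9 kb, there were 4 IDR summits (5.42 per 100 kb, exact Poisson 95% interval 1.48 to 13.9). The highest of them ranked 367, above each summit in the windows of Tollo and Toll-6, with 145 in replicate 2 and 66.5 in replicate 3. It was intergenic, and its nearest TSS was that of Toll-6, 15602 bp away. Between Toll-7 and 18w, over 258.5 kb, there were 5 IDR summits (1.93 per 100 kb, 0.628 to 4.51). The highest ranked 775, with 81.5 and 61.3 in the replicates, and its nearest TSS was that of CG16898, 7392 bp away.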
